A study of Neurospora crassa with 2 samples.

Results

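The genes near the chromosome ends of Neurospora crassa, a filamentous ascomycete fungus, were compared between a upf1 knockout strain and a wild-type strain. A gene was called subtelomeric when its whole model lay within 150 kb of either end of 1 of the 7 chromosomes, which the deposited table names supercontigs 1 to 7. The largest end coordinate in the table stood for the length of each supercontig. This gave 527 subtelomeric genes, 5.59% of the 9426 genes on the 7 supercontigs, and the other 8899 are called interior genes. The table held 9454 genes in all, and 28 lay on another contig. Because the last gene set each length, the outermost gene of every right end is at distance 0 by construction, and sequence beyond the last gene is not counted.

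Both strains were grown as hyphae, for 2 weeks on minimal slants and then for 2 days in 2% glucose medium under constant light, with no further treatment. The knockout lacks upf1, whose protein is the RNA helicase at the core of nonsense-mediated mRNA decay. Polyadenylated RNA from 3 flasks was pooled for each strain, so there was 1 library per strain and no comparison below has a replicate or a p-value. Which part of upf1 was removed and the parentage of either strain are not stated in the labels.

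Subtelomeres are the chromosome stretches next to the telomeric repeats. In fungi they are known as places where genes are often weakly expressed, packaged in repressive chromatin and variable between strains. In Neurospora crassa they carry much of the genome's trimethylation of histone H3 at lysine 27, the mark laid down by the Polycomb enzyme SET-7, and subtelomeres of filamentous fungi are rich in genes of secondary metabolism and secreted enzymes. Nonsense-mediated decay removes transcripts on which translation ends too early, and its loss can raise some transcripts directly and others through their regulators.

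The targeted gene, prd-6 (NCU04242, upf1), had 2.78 RPKM in the knockout library and 22.6 RPKM in the wild-type library, 8.15-fold lower in the knockout. RPKM are reads scaled to the length of the gene model and to the total of the library. The table held 56306422 knockout reads and 28189643 wild-type reads, and subtelomeric genes took 3.66% of the knockout reads and 3.65% of the wild-type reads. A subtelomeric gene had a median of 1295 knockout reads and 400 wild-type reads. Of the 10 marker genes of other cell types, 4 of 6 conidiation genes were at least 2-fold higher and 2 lower, and 2 of 4 mating genes were higher and 1 lower. Summed over the 6 conidiation genes the level was 2529 RPKM in knockout hyphae and 16070 RPKM in wild-type hyphae, most of it from the hydrophobin gene eas, and without eas it was 911 RPKM and 86.8 RPKM. One of these markers, con-6, is itself subtelomeric. The part of conidiation in the values below was not tested.

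Subtelomeric genes were more often higher in the knockout than interior genes were. Higher and lower stand for a difference of 2-fold or more in log2((knockout RPKM + 1)/(wild-type RPKM + 1)), called the log2 ratio below, and all genes were kept however low their level. Of the 527 subtelomeric genes, 109 (20.7%) were higher in the knockout by 2-fold or more, against 1298 of 8899 interior genes (14.6%) and 14.9% of all genes in the table. In the other direction 20 (3.80%) were at least 2-fold lower, against 417 interior genes (4.69%) and 4.81% of the table. At 4-fold, 37 subtelomeric genes (7.02%) were higher and 5 (0.949%) lower, beside 3.10% and 1.06% of the table. The remaining 398 subtelomeric genes lay within 2-fold.

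The typical subtelomeric gene differed little from the typical interior gene. The median log2 ratio was 0.21 for subtelomeric and 0.15 for interior genes, with an interquartile range across genes of -0.20 to 0.86 and of -0.23 to 0.64. The upper part of the distribution was thus further from the interior genes than its middle. Centring on the median of all genes shifts every log2 ratio down by 0.15, and the subtelomeric median was then 0.062. With 1 library per strain the difference between subtelomeric and interior genes could not be tested.

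Subtelomeric genes were expressed at lower levels than interior genes, and more so in the wild type. Their median was 12.5 RPKM in knockout hyphae and 7.68 RPKM in wild-type hyphae, whereas interior genes had medians of 18.4 RPKM in knockout hyphae and 15.9 RPKM in wild-type hyphae. Under 1 RPKM stood 76 subtelomeric genes (14.4%) in knockout hyphae and 109 (20.7%) in wild-type hyphae, beside 10.8% and 13.6% of interior genes. In bulk samples, fewer cells that express a gene and less RNA per cell cannot be told apart. The knockout library was 2.02 times deeper, which moves counts of 0 more than levels: 8 subtelomeric genes had no read in knockout hyphae and 20 had none in wild-type hyphae, 6 of them in both.

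A small set of subtelomeric genes was near silent in the wild type and clearly present in the knockout. Under 1 RPKM in the wild type and at or above 5 RPKM in the knockout stood 12 subtelomeric genes (2.28%) and 43 interior genes (0.483%), beside 0.582% of the table. The opposite pattern was found for 1 subtelomeric gene, NCU05189, and for 10 interior genes, beside 0.190% of the table. NCU05189, a hypothetical protein gene, had 0.582 RPKM from 46 reads in knockout hyphae and 6.05 RPKM from 237 reads in wild-type hyphae. A filter at 5 RPKM in at least 1 library would have kept 368 of the 527 subtelomeric genes, and the 12 genes pass it only through the knockout.

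Distance from the end separated the subtelomeric genes. Distances are those of the gene edge nearer the end, so that the bins up to 150 kb hold 536 genes, 9 of which reach past 150 kb and are not members. In the outermost 50 kb, 52 of 184 genes (28.3%) were 2-fold or more higher and 5 (2.72%) lower. From 50 to 100 kb it was 38 of 188 (20.2%) higher and 5 lower, and from 100 to 150 kb 21 of 164 (12.8%) higher and 11 lower. The next 3 bins of 50 kb, up to 300 kb, had 14.1%, 15.3% and 12.3% of genes higher, and genes more than 300 kb inside had 14.6%. The innermost bin of the subtelomeric window therefore stood no higher than the interior, and the surplus of higher genes lay in the outer 100 kb.

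**Figure D1:**
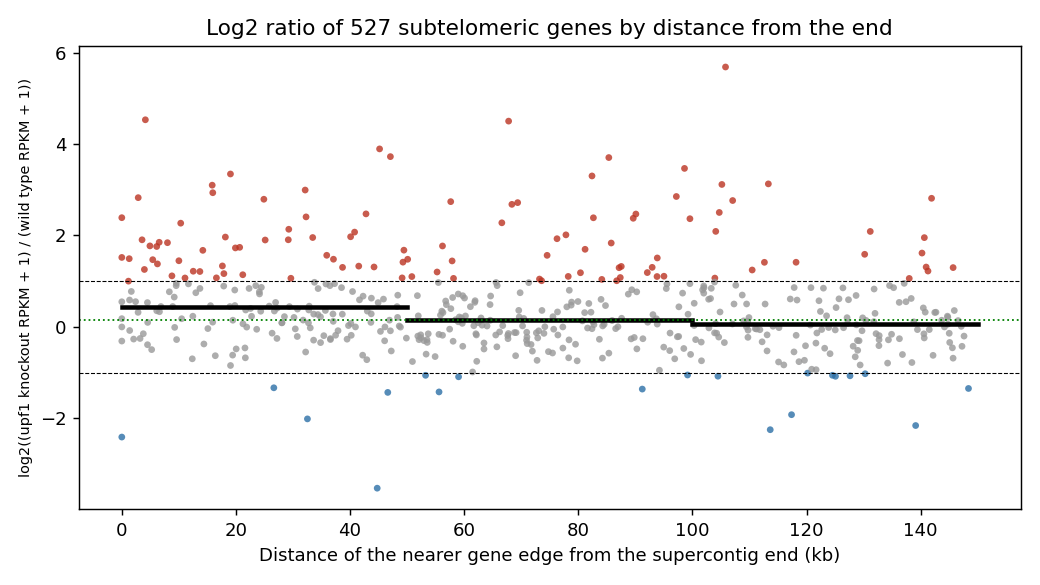
Log2 ratio of each of the 527 subtelomeric genes (1 point per gene, pseudocount 1 RPKM) against the distance of its nearer edge from the supercontig end in kb. Red points are at least 2-fold higher and blue points at least 2-fold lower in the knockout library, black bars are medians of the 50 kb bins (0.45, 0.14 and 0.062, over the 536 genes of the bins) and the green dotted line is the interior median of 0.15.

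The medians followed the same order. The median log2 ratio was 0.45 in the outermost 50 kb, 0.14 from 50 to 100 kb and 0.062 from 100 to 150 kb, against 0.15 beyond 300 kb. With log2 ratios centred by gene model length (8 bins) the first was 0.26 while the others were -0.043 and -0.080, so only the outermost bin kept its sign. With TMM scaling, edgeR's normalisation by a trimmed mean of gene ratios, they were 0.28, 0.020 and -0.039. When each supercontig was left out in turn, the outermost bin had between 24.8% and 32.1% of its genes higher, the 50 to 100 kb bin between 17.6% and 22.4%, and the 100 to 150 kb bin between 11.7% and 13.5%.

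Level did not follow distance in the same way. Median levels were 13.4 RPKM in knockout hyphae and 7.39 RPKM in wild-type hyphae in the outermost 50 kb, 16.0 and 13.2 RPKM from 50 to 100 kb, and 7.01 and 5.45 RPKM from 100 to 150 kb. The 3 bins from 150 to 300 kb also had low medians, of 7.86 to 8.99 RPKM in the knockout and 6.42 to 8.11 RPKM in the wild type, and genes beyond 300 kb had 19.1 and 16.4 RPKM. Low wild-type levels thus reached further inside than the surplus of genes higher in the knockout.

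**Figure D2:**
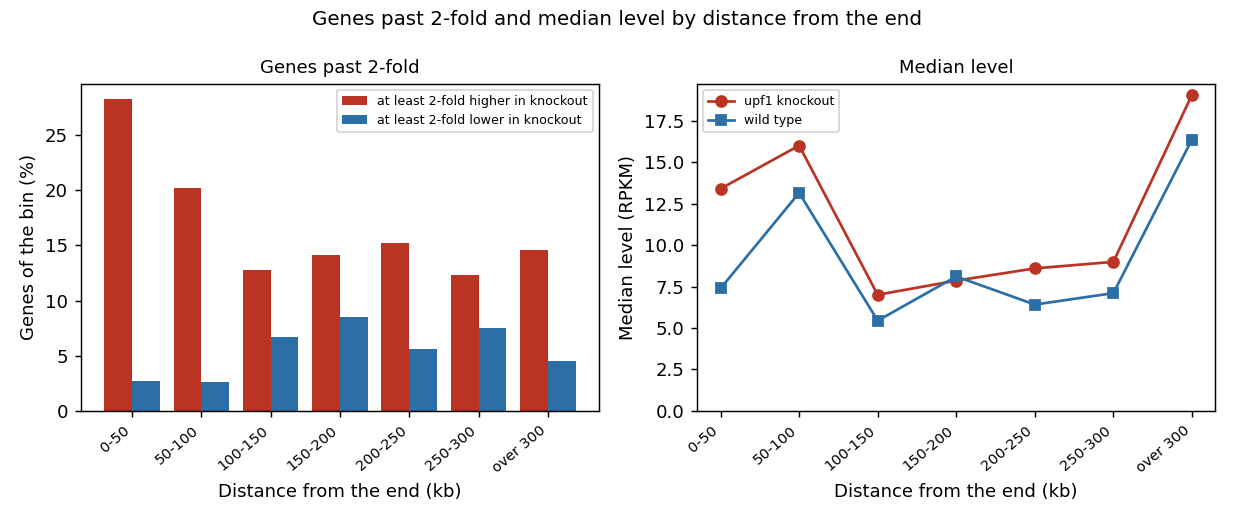
Left, percentage of genes at least 2-fold higher (red) and at least 2-fold lower (blue) in the knockout library in bins of distance from the supercontig end in kb. Right, median level in RPKM of the same bins in the knockout (red circles) and wild-type (blue squares) libraries. The share of higher genes is 28.3% in the outermost bin and 12.8% from 100 to 150 kb, while median levels stay under 10 RPKM in both libraries from 100 to 300 kb.

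The share of higher genes was compared at matched levels of expression. Genes were split into 4 equal bins of mean RPKM over both libraries, a split added after the data were seen. In the weakest bin, up to 5.09 RPKM, 14.8% of genes in the outer 50 kb, 15.2% from 50 to 150 kb and 13.7% of interior genes were higher in the knockout. From 5.09 to 17.1 RPKM these shares were 42.9%, 23.9% and 17.0%, from 17.1 to 45.9 RPKM 22.9%, 15.8% and 14.1%, and above that 34.4%, 10.2% and 13.5%. The bins of the outer 50 kb held 61, 56, 35 and 32 genes. Shares were close together in the weakest bin, but its median log2 ratio was 0.37 in the outer 50 kb and 0.18 in the interior, and 0 of 61 against 2.76% of genes were lower. The pseudocount of 1 RPKM shrinks the log2 ratios of genes this weak.

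**Figure D3:**
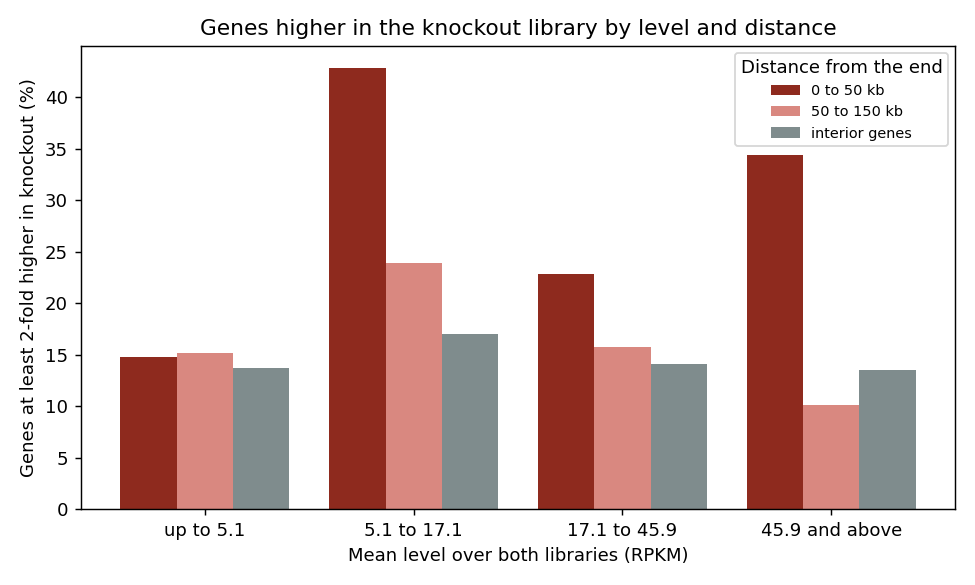
Percentage of genes higher by 2-fold or more in the knockout, by mean level over both libraries in RPKM, for genes in the outer 50 kb (dark red), from 50 to 150 kb (pale red) and interior genes (grey). The dark bars are 42.9% in the second level bin and 34.4% in the fourth, against 17.0% and 13.5% for interior genes, and the bars of the weakest bin lie between 13.7% and 15.2%.

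Gene model length moved with the ratio in these libraries and subtelomeric genes were a little shorter, with a median of 1470 bp against 1636 bp for interior genes. In 8 equal bins of length, the share of genes higher in the knockout was larger in the outer 50 kb than among interior genes in each bin, from 42.3% against 19.4% in the shortest models to 11.8% against 5.76% in the longest. The bins of the outer 50 kb held only 17 to 31 genes each.

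Subtelomeric genes also differed from the interior in features of their annotation. Gene density was 251 per Mb against 233 per Mb in the interior. Hypothetical proteins made up 326 of the 527 (61.9%), against 52.7% of interior genes, and 44 genes (8.35%) carried a gene symbol, against 11.98%. Overlapping gene models were about as frequent, 7.97% against 9.41%. An intron, taken as present where the gene spans more bases than the length used for RPKM, was found in 74.4% of subtelomeric and 78.8% of interior models. Among the 392 subtelomeric genes with an intron 92 (23.5%) were higher in the knockout, and among the 135 without one 17 (12.6%), whereas interior genes had 15.3% and 11.98%. Genes transcribed towards the chromosome end were higher in 55 of 241 cases (22.8%) and those transcribed away from it in 54 of 286 (18.9%). Interior genes had 14.6% and 14.5%.

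The 14 ends were unequal. Each held 29 to 52 members, all 14 had more higher than lower genes, and 6 had no gene at least 2-fold lower, but only 9 exceeded the 14.9% of the whole table. The right end of supercontig 3 led with 17 of 44 genes higher, followed by the left ends of supercontigs 2 and 4 with 12 of 36 each and the right end of supercontig 6 with 11 of 36. These 4 ends, singled out after their values were seen, held 52 of the 109 higher genes and 1 of the 20 lower ones. At the other 10 ends together 57 of 375 genes (15.2%) were higher, close to the share in the table, and 19 lower. In the outer 50 kb those 10 ends had 24 of 121 genes higher (19.8%), against 28 of 63 (44.4%) at the 4 leading ends.

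In 3 ends no gene was higher in the outer 50 kb, the left end of supercontig 5 and both ends of supercontig 7, where the higher genes of supercontig 7 lay further in. Medians by end ran from -0.0045 at the right end of supercontig 4 to 0.56 at the right end of supercontig 6. Of the 14 medians 13 were above 0, but 8 were after centring on the median gene, 8 with length centring and 9 with TMM scaling. The medians of the 4 leading ends, 0.45 to 0.56, kept their sign under these 3 scalings.

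**Figure D4:**
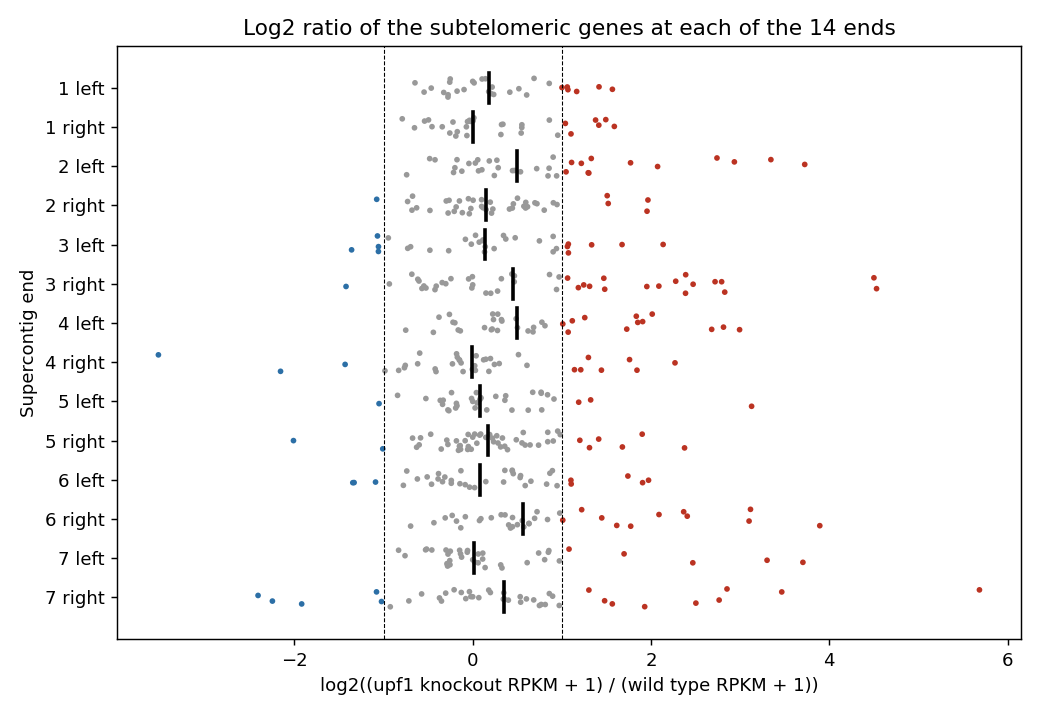
Log2 ratio of each subtelomeric gene at the 14 supercontig ends (1 row per end, 1 point per gene, vertical jitter for display only), with red and blue points at least 2-fold higher and lower in the knockout library and black ticks at the median of each end. The right end of supercontig 3 has 17 of 44 genes past the right dashed line, and the left end of supercontig 5 has 3 of 35.

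The outermost gene of each end did not behave as a class. Of the 14, 3 were at least 2-fold higher, 1 lower, and 3 under 1 RPKM in both libraries. NCU11876, at the right end of supercontig 3, had 4.24 RPKM from 66 reads in knockout hyphae and no read in wild-type hyphae, at least 10.9-fold higher when 3 wild-type reads are allowed for. The gene set-6, outermost on the right of supercontig 2, had 86.6 RPKM in knockout hyphae and 29.6 RPKM in wild-type hyphae. NCU10129, the first gene of supercontig 1, had 24.4 and 11.7 RPKM. On the lower side NCU09306, the last gene of supercontig 7, had 2.93 RPKM in knockout hyphae and 19.8 RPKM in wild-type hyphae, 6.78-fold lower (5.74 to 8.04). Folds compare reads over library totals, and the bracketed range is the exact Clopper-Pearson interval at 95%, which covers counting error alone.

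Some of the higher genes sat in runs of 3 or more neighbours, 40 of the 109, and 69 lay in no such run. Pairs of higher neighbours were not counted. Runs of at least 3 consecutive subtelomeric genes, all at least 2-fold higher, occurred 11 times at 8 ends. They held 40 genes (7.59% of subtelomeric genes), whereas 2.34% of interior genes lay in such runs. Runs become more frequent wherever more genes are higher, here 20.7% of subtelomeric and 14.6% of interior genes. Clustering beyond that difference in shares was not tested. With median centring it was 9 runs and 29 genes (5.503%, interior 1.48%), with TMM 9 and 31 (5.88%, 1.43%) and with length centring 8 and 25 (4.74%, 1.24%). No run of lower genes occurred among subtelomeric genes, and 0.292% of interior genes lay in one. The runs spanned 3.49 to 17.8 kb, 6 lay wholly within 50 kb of the end and 9 within 100 kb, and in 6 all genes had the same strand. Of the 40 genes 29 encode hypothetical proteins, and 2, NCU09632 and NCU09630, overlap another model. The labels do not say if counting used strand, so values of overlapping genes are uncertain.

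On the left of supercontig 4 a run of 5 genes on the minus strand, from 3960 to 21754, contained pks-5, a polyketide synthase gene of secondary metabolism. pks-5 had 12.2 RPKM in knockout hyphae and 5.27 RPKM in wild-type hyphae. Its neighbour NCU09637, annotated as sterigmatocystin 8-O-methyltransferase after an enzyme of mycotoxin synthesis, had 15.6 and 6.66 RPKM. Hypothetical protein genes made up the rest of the run: NCU09635 had 4.89 and 1.46 RPKM, NCU09636 5.04 and 0.673 RPKM, and NCU09639 13.2 and 3.28 RPKM. The run was broken under each of the 3 scalings, since NCU09637 had log2 ratios of 0.97 with median centring, 0.94 with TMM and 0.90 with length centring. The knockout value was the higher one in all 5, by 2.31-fold (2.17 to 2.46) in pks-5 and 7.49-fold (5.32 to 10.9) in NCU09636. NCU10572, a short chain oxidoreductase gene 32.1 kb from the same end, had 146 RPKM in knockout hyphae and 17.5 RPKM in wild-type hyphae.

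The left arm of supercontig 7 held a run of 5 genes on the minus strand from 81192 to 92267 that encode mostly oxidative enzymes. NCU05888, annotated as a dibenzothiophene desulfurization enzyme, had 50.9986 RPKM in knockout hyphae and 4.27 RPKM in wild-type hyphae, 11.9-fold higher (10.3 to 13.9). The oxidoreductase gene NCU05887 had 28.3 and 1.25 RPKM, 22.7-fold higher (17.2 to 30.6), and the flavin-binding monooxygenase gene NCU05885 had 13.8 and 1.66 RPKM. The remaining genes were weaker, NCU11305 with 2.78 and 0.165 RPKM and the membrane protein gene NCU05886 with 1.36 and 0.117 RPKM, from 3 and 4 wild-type reads. All 5 lay more than 80 kb from the end, and no gene in the outer 50 kb of that end was 2-fold higher. With median and length centring the run held NCU11305, NCU05888 and NCU05887 only, since NCU05886 had log2 ratios of 0.93 and 0.87.

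At the right end of supercontig 7 the genes on either side of 110 kb differed in opposite directions. NCU09277, a hypothetical protein gene on the minus strand 106 kb from the end, had the largest log2 ratio of all subtelomeric genes, 5.69, with 67.9 RPKM from 1616 reads in knockout hyphae and 0.339 RPKM from 4 reads in wild-type hyphae. Its neighbours were NCU09276, with 6.03 RPKM in knockout hyphae and 0.0348 RPKM from a single read in wild-type hyphae, and the oxidoreductase gene NCU09278, with 35.7 and 5.48 RPKM. The fold of NCU09276, 189, has a counting interval of 33.7 to 7474. A second run further out held NCU12056 (18.3 and 0.749 RPKM), NCU09280 (10.2 and 0.552 RPKM) and the alpha-glucosidase gene gh31-1 (9.47 and 3.24 RPKM). On the inner side 4 hypothetical protein genes were lower in the knockout. NCU09274 had 4.73 RPKM in knockout hyphae and 26.2 RPKM in wild-type hyphae, NCU09273 had 7.02 and 29.3 RPKM, NCU09271 had 23.1 and 50.0009 RPKM, and NCU09270 had 11.7 and 24.8 RPKM. Together with NCU09306 they made this end the one with most lower genes, 5 of 43.

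The last 7.37 kb of supercontig 3, from 5266346 to 5273718, held a run of 4 genes that ended with NCU11876. NCU11291 stood at 90.3 RPKM in knockout hyphae and 2.95 RPKM in wild-type hyphae, 30.6-fold higher (24.1 to 39.4), and NCU11292 beside it at 308 and 42.6 RPKM. The acetylcholinesterase gene NCU08752 had 23.1 and 7.68 RPKM. The 3 hypothetical protein genes of this run thus had larger folds, NCU11876 by its lower bound, than the annotated enzyme.

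Around con-6, which encodes a small protein made during conidiation, a second run lay 66.6 to 69.4 kb from the same end. con-6 stood at 642 RPKM in knockout hyphae and 27.4 RPKM in wild-type hyphae. On its sides NCU08768 had 55.0 and 10.5 RPKM, 5.21-fold higher (4.66 to 5.84), and NCU08770 had 34.7 and 4.42 RPKM, 7.85-fold higher (6.27 to 9.95). The protein kinase gene stk-52, annotated as RIO1, a kinase of ribosome maturation, lay next to this run with the opposite sign, at 24.3 RPKM in knockout hyphae and 66.7 RPKM in wild-type hyphae, 2.75-fold lower (2.61 to 2.89).

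The remaining runs held mainly hypothetical proteins. On the left of supercontig 2, NCU09631 had 18.4 RPKM in knockout hyphae and 1.54 RPKM in wild-type hyphae, and NCU09630 and NCU09632, the overlapping models, had 27.8 and 1.84 RPKM and 65.2 and 27.4 RPKM. These 3 formed no run with length centring, where NCU09632 had a log2 ratio of 0.94. A second run at that end held NCU09620, NCU09619 and NCU09617, with folds of 2.82, 4.79 and 2.64. Between them and the centre, NCU09615 stood alone at 127 RPKM in knockout hyphae and 8.69 RPKM in wild-type hyphae, 14.6-fold higher (13.3 to 16.1).

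Similar runs lay on supercontigs 3, 4 and 6. On the left of supercontig 3, NCU09524, NCU09523 and NCU09522 had folds of 5.19, 2.20 and 2.69, a run absent under the 3 scalings. On the right of supercontig 4 a run of 5 genes included NCU10040, with 439 RPKM in knockout hyphae and 90.3 RPKM in wild-type hyphae. It also held the phosphodiesterase gene NCU10038, with 21.4 and 5.61 RPKM, and NCU10070, NCU11792 and NCU10039, with folds of 2.45, 3.33 and 4.38. That run held 4 genes with median centring and with TMM, and 3 with length centring. On the right of supercontig 6, NCU05018 had 16.9 and 1.06 RPKM, 15.9-fold higher (11.3 to 23.2), followed by NCU05017 with 7.53 and 1.003 RPKM and NCU05016 with 19.0 and 2.87 RPKM. At the right end of supercontig 5, NCU07148, NCU07147 and NCU07145 were neighbours without a wild-type read and had 24, 7 and 2 reads in the knockout.

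**Figure D5:**
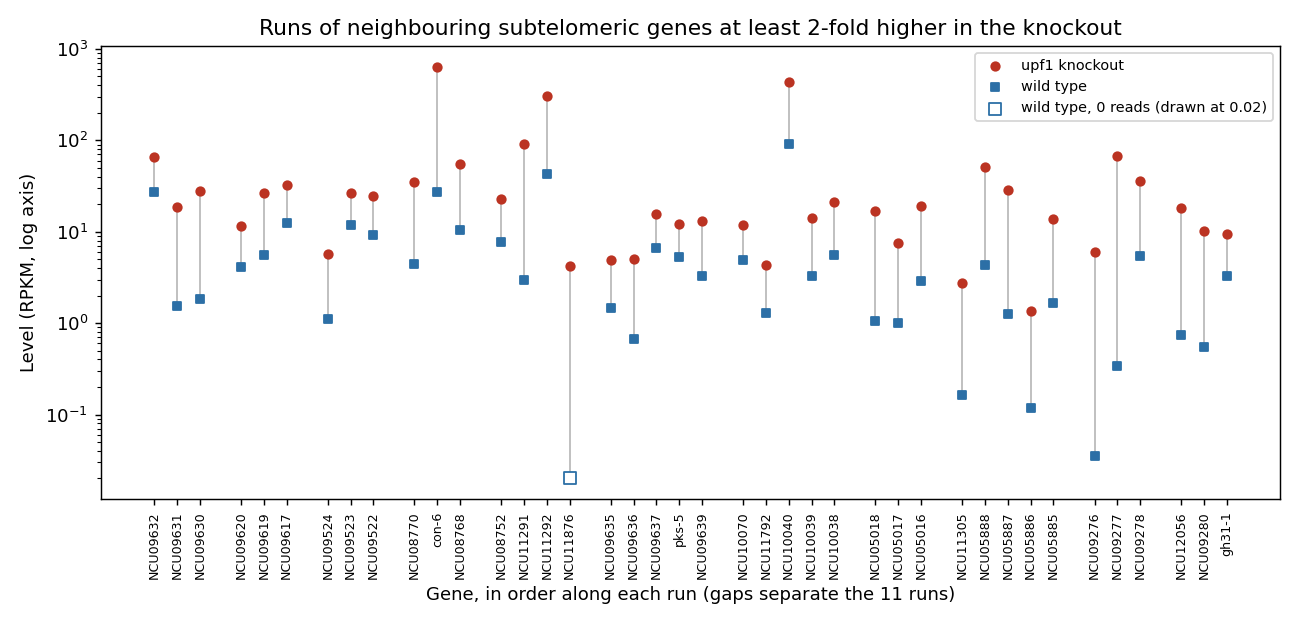
Level in RPKM (log axis) of the 40 genes in the 11 runs of neighbouring subtelomeric genes that were all at least 2-fold higher, in the knockout (red circles) and wild-type (blue squares) libraries, joined by a line per gene. Knockout values run from 1.36 RPKM in NCU05886 to 642 RPKM in con-6, and the open square marks NCU11876, which had no wild-type read.

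Outside the runs 7 further genes were under 1 RPKM in the wild type and at or above 5 RPKM in the knockout. Among them 3 had an enzyme name, 1 was known by a domain and 3 were hypothetical. NCU05005, an HHE domain gene 45.2 kb from the right end of supercontig 6, had 21.8 RPKM in knockout hyphae and 0.532 RPKM in wild-type hyphae, 40.9-fold higher (25.1 to 71.8). The xylanase gene gh10-3, for an enzyme that cuts the plant polymer xylan, had 13.8 and 0.723 RPKM at the same end. NCU08856, annotated as myo-inositol oxygenase, an enzyme of inositol breakdown, had 10.6 and 0.331 RPKM, 32.1-fold higher (19.7 to 56.4). The aldo-keto reductase gene NCU11289 had 6.77 and 0.828 RPKM. Each rested on fewer than 35 wild-type reads, as did NCU10427, NCU07581 and NCU09650, hypothetical protein genes with knockout levels of 6.88, 8.17 and 10.98 RPKM against 0.138, 0.304 and 0.868 RPKM.

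Genes named as carbohydrate-active enzymes were more often higher than the table as a whole. The groups that follow were formed by product name in the deposited table, and their counts are to be read beside 14.9% higher and 4.81% lower. Of 10 subtelomeric carbohydrate-active enzymes 5 were higher and 0 lower, and the median log2 ratio was 0.90, against 22 of 94 higher, 4 lower and a median of 0.27 in the interior. The 5 became 4 when log2 ratios were centred on their median or scaled by TMM, without gh61-5, and 3 with length centring, without NCU09904 as well. Besides gh10-3 and gh31-1 they were gh6-3, an exoglucanase gene of cellulose breakdown with 14.5 RPKM in knockout hyphae and 5.26 RPKM in wild-type hyphae, the endoglucanase gene gh61-5 with 8.55 and 3.56 RPKM, and the glucan 1,3-beta-glucosidase gene NCU09904 with 7.03 and 2.58 RPKM. The name rule missed gh13-3, a maltohexaosidase gene, which had 14.5 and 3.01 RPKM, while the starch amylase gene gh13-6, an overlapping model, had 14.3 and 16.0 RPKM and the xylanase gene gh10-4 was near silent at 0.211 and 0.284 RPKM. The beta-glucosidase genes gh3-2 and gh3-3 stood at 13.3 and 13.2 RPKM and at 4.45 and 2.95 RPKM.

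Redox enzymes were above the share of the table at the ends and in the interior. Of 23 subtelomeric dehydrogenases, reductases and oxidases 7 (30.4%) were higher and 1 lower, against 61 of 317 (19.2%) and 25 in the interior. The medians were 0.40 and 0.25. Under each of the 3 scalings 7 of the 23 were higher, while 1, 2 and 3 were lower with median centring, TMM and length centring. Interior genes had 50, 46 and 44 of 317 higher and 30, 33 and 33 lower in the same order. The alcohol dehydrogenase gene mig-6 was the most abundant of the higher ones, at 642 RPKM in knockout hyphae and 168 RPKM in wild-type hyphae, 3.83-fold higher (3.73 to 3.93). NCU09519, named as a diketogluconic acid reductase, had 55.8 and 11.9 RPKM, with a gene model length that differed between the libraries, and NCU12058, an oxidoreductase gene, had 17.9 and 5.38 RPKM. NCU05165, a pyridoxamine phosphate oxidase gene whose enzyme completes a route to vitamin B6, was the lower one, at 314 RPKM in knockout hyphae and 849 RPKM in wild-type hyphae, but it overlaps another model. The catalase gene cat-4, outside this group by its name, had 18.3 and 6.11 RPKM. Among 8 cytochrome P450 and monooxygenase genes 2 were higher, NCU05885 and NCU08062 (3.72 and 1.26 RPKM), against 12 of 41 in the interior, and 1 was under each of the 3 scalings.

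Transporters showed no such share. Of 20 subtelomeric transporter genes 2 were higher and none lower, against 36 of 227 (15.9%) higher and 29 lower in the interior. They were NCU09654, of the major facilitator superfamily, with 71.6 RPKM in knockout hyphae and 17.0 RPKM in wild-type hyphae, and the amino acid permease gene NCU07129 with 40.1 and 18.1 RPKM. Under each of the 3 scalings 1 of the 20 was higher. The arginine transporter gene pmb had 30.6 and 46.7 RPKM and the zinc transporter gene tzn-2 had 11.9 and 9.34 RPKM. The median of this group, 0.21, was 0.031 with length centring.

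Secondary metabolism had few genes in the table by name, 3 subtelomeric and 5 interior. Of the 3 at the ends, pks-5 and the nonribosomal peptide synthase gene NCU07119 were higher, NCU07119 with 9.57 RPKM in knockout hyphae and 3.91 RPKM in wild-type hyphae but overlapping another model, and the polyketide synthase gene pks-2 had 6.84 and 5.10 RPKM. Neither call held when log2 ratios were centred on their median or scaled by TMM (0.92 and 0.90 for pks-5, 0.96 and 0.94 for NCU07119), and both did with length centring. None of the 5 interior genes was higher and 1 was lower. No subtelomeric gene carried a product name of heterokaryon incompatibility, ankyrin or NACHT proteins, against 12 interior genes.

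Genes of translation were mostly on the lower side, few of them past 2-fold. Product names gave 10 subtelomeric genes, of which NCU07119 entered through the word nonribosomal only. Of the other 9 none was higher and 2 were lower, with a median of -0.48, and the interior group of 237 had a median of -0.081. The make-up of both groups was not matched, and no interior value was taken for ribosomal protein genes alone. All 5 subtelomeric ribosomal protein genes were on the lower side of 0, with log2 ratios from -1.01 to -0.19. The 40S protein gene NCU07182 (S24) had 1032 RPKM in knockout hyphae and 2077 RPKM in wild-type hyphae, crp-7 had 779 and 1226 RPKM, and NCU09476 (S25), with the smallest difference, had 2304 and 2621 RPKM. On the other side of 0 stood NCU11341, of the initiation factor eIF-2B, with 11.1 and 5.51 RPKM, and the seryl-tRNA synthetase gene NCU09594 with 22.03 and 11.8 RPKM. The leucyl-tRNA synthetase gene leu-6, whose enzyme charges leucine onto tRNA, had 41.6 and 88.9 RPKM.

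The 6 most abundant subtelomeric transcripts lay close to parity or on the lower side. The ADP/ATP carrier gene aac, for the mitochondrial protein that exchanges ADP and ATP, led with 3382 RPKM in knockout hyphae and 2951 RPKM in wild-type hyphae, and NCU09476, NCU08620 (S16; 1358 and 1864 RPKM), NCU07182, NCU09475 (S5; 852 and 1319 RPKM) and crp-7 followed. The chaperone gene hsp70-1 had 415 and 694 RPKM. Among 89 subtelomeric genes with a mean above 45.9 RPKM, 16 (18.0%) were higher and 10 (11.2%) lower, against 13.5% and 7.28% of interior genes. Proteases, 5 genes, had none past 2-fold, against 14 of 84 higher in the interior. By name 3 genes were placed with transcription factors, one of them a Zn protease, and of the other 2 the C2H2 factor gene NCU09496 had 39.8 and 84.7 RPKM and the b-ZIP factor gene NCU08055 had 104 and 152 RPKM.

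The 326 hypothetical protein genes supplied 71 of the 109 higher and 12 of the 20 lower genes. Their share of higher genes, 21.8%, compares with 16.0% of hypothetical genes in the interior, and genes with a named product had 18.9% against 13.03%. Hypothetical genes had medians of 8.06 RPKM in knockout hyphae and 4.37 RPKM in wild-type hyphae at the ends, and of 10.01 and 7.98 RPKM in the interior. Larger shares at the ends were thus found with and without an annotated product. Of the 326 hypothetical genes, 61 were higher and 16 lower with median centring and with TMM, and 56 and 17 with length centring. Interior hypothetical genes had 594, 585 and 535 of 4687 higher with median centring, TMM and length centring.

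Of the 44 genes with a symbol 12 (27.3%) were higher and 3 lower, against 10.5% higher in the interior, while the medians were 0.054 and 0.015. Those past 2-fold and not named above were phr, the photolyase gene that repairs ultraviolet damage with light energy (107 RPKM in knockout hyphae and 34.99 RPKM in wild-type hyphae), and amt, with a product listed as hypothetical (12.7 and 1.64 RPKM). The third lower gene beside leu-6 and stk-52 was his-6, of histidine synthesis, with 46.0 and 189 RPKM, an overlapping model. Within 2-fold, ci-1, listed as ent-kaurene oxidase, had 71.4 and 39.5 RPKM, acp-1 200 and 128 RPKM, and nuo14, of respiratory complex I, 115 and 90.1 RPKM. Near parity stood nuo21.3c (122 and 114 RPKM), the proteasome gene pcb-1 (240 and 209 RPKM), the actin-related gene arp2 (148 and 153 RPKM), the carotenoid oxygenase gene cao-2 (35.6 and 37.6 RPKM), bek-2 (31.2 and 32.0 RPKM, an overlapping model), gpig-1 (19.6 and 18.1 RPKM) and the riboflavin synthesis gene rib-4 (39.5 and 44.2 RPKM). The tubulin gene tba-2 had 186 RPKM in knockout hyphae and 260 RPKM in wild-type hyphae, erg-3 of sterol synthesis 92.1 and 117 RPKM, cen-c 10.8 and 15.5 RPKM, and the kinase gene stk-8 15.9 and 26.0 RPKM. The repair and kinase genes mus-41, uvs-3, parp, cdc7 and stk-55, had log2 ratios between -0.28 and -0.082.

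Of the 20 lower genes 10 had a mean level above 45.9 RPKM, where 10 of 89 subtelomeric genes (11.2%) and 165 of 2268 interior genes (7.28%) were lower. NCU05163, a hypothetical protein gene 44.8 kb from the right end of supercontig 4, had 59.9 RPKM from 1340 reads in knockout hyphae and 701 RPKM from 7764 reads in wild-type hyphae, 11.7-fold lower (11.04 to 12.4). NCU12062, NCU09506 and NCU07108, all hypothetical, had 12.9 and 34.0 RPKM, 8.68 and 23.8 RPKM, and 7.75 and 21.2 RPKM. Of the 20 lower genes 4 overlap another model, and of the 109 higher genes 5 do.

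Genes of silent chromatin, histone methylation, telomeres and DNA repair were taken as a list wherever they lie in the genome. Of 24 genes matched by symbol or product 2 (8.33%) were higher and 0 lower, beside 14.9% and 4.81% of the table. A list this short cannot set these shares apart from those of the table, and no difference was tested. Other genes sought by symbol, among them eed, epr-1 and tert, found no match. The median of the 24 was 0.34, beside 0.15 for all genes of the 7 supercontigs. Of the 24, 20 were above 0, but the share of all genes above 0 was not counted. None of the 24 is itself subtelomeric. The H3 lysine 27 methyltransferase gene set-7 had 3.87 RPKM in knockout hyphae and 2.498 RPKM in wild-type hyphae. The H3 lysine 9 methyltransferase gene dim-5 had 10.03 and 6.64 RPKM, the heterochromatin protein gene hpo 49.3 and 35.01 RPKM, and the sirtuin gene nst-1 24.4 and 25.5 RPKM. The 2 past 2-fold were mus-51, a Ku gene of end joining, with 32.6 RPKM in knockout hyphae and 14.4 RPKM in wild-type hyphae, and nst-7 with 12.99 and 3.45 RPKM.

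The window of 150 kb had no visible step at its inner border. The innermost member of each end had a log2 ratio between -1.35 and 1.30 with a median of 0.076, and the next gene inwards, outside the window, between -1.66 and 1.36 with a median of 0.19. Of each 14 genes 2 were higher, and 3 inside and 1 outside were lower.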

How the data were processed

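Alignment used Bowtie 0.12.2, per the submitters' processing notes; the genome build, annotation and counting rules were not stated in the labels or the header. The deposited table holds raw read counts and RPKM values for both libraries, per the file headers, and the product names that defined the groups here. Column names were matched to sample titles by initials, leaving 0 value columns unassigned. Totals of 59645570 knockout and 29546475 wild-type reads were recovered from reads, RPKM and gene spans without introns. A count of 0 allows 3 reads, or 0.0503 RPKM (knockout) or 0.102 RPKM (wild type) for a gene of 1 kb. Coordinates are those of the table. Symbols came from a RefSeq table of assembly NC12, matched by identifier for 486 of 527 members.

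The log2 ratio used a pseudocount of 1 RPKM with no rescaling and no filter. No molecular identifiers are described, so reads may share a molecule, and intervals and floors do not cover variation between cultures. Calling and intervals were tested on simulated counts with counting error alone, in which every changed gene had many reads. Differences in genes with few wild-type reads were not covered by it. Members and gene lists were chosen with earlier results of these data known. The rule for named genes took the 12 largest and 10 smallest log2 ratios, the 6 highest levels, outermost genes, genes with a symbol, genes in runs and 2 per product group, 119 genes in all. Subtelomeric genes named outside it, NCU07581, NCU09270, NCU09271, NCU09519, NCU09650, NCU09904, NCU10427, NCU11289, NCU11341, NCU09594, NCU12058 and NCU12062, and silencing genes within 2-fold, were chosen after their values were seen. Python 3.11.15, pandas 2.3.3, SciPy 1.17.1 and edgeR 4.0.16 (TMM factors only) were used. Alternatives were other pseudocounts, filters, scalings, windows and thresholds, and leaving out overlapping models, each supercontig or each end.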

Additional observations from a re-analysis of the deposited data

How the results depend on the processing

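No paired analysis was possible because each strain has 1 pooled library. Under every alternative run, the share of subtelomeric genes at least 2-fold higher stayed above that of interior genes. Their median log2 ratio stayed above 0 and above the interior median. The filter at 5 RPKM in either library keeps genes through the library in which they are high. Its shares are therefore no separate support. The share of 20.7% became 28.3% with a pseudocount of 0.1 (interior 19.5%), 12.7% with 5 (8.59%), 25.5% for genes that reached 5 RPKM in either library (16.0%), 17.1% when log2 ratios were centred on their median (11.5%), 17.3% under TMM (11.2%), 16.3% with length centring (10.7%), 7.02% at 4-fold (2.88%) and 28.0% within 50 kb (14.7%), a window added after the data were seen. The median of 0.21 became 0.35, 0.095, 0.062, 0.093, 0.042 and 0.45 with pseudocounts of 0.1 and 5, centring, TMM, length centring and 50 kb, and 50 kb moved the difference from interior genes to 0.30 from 0.064. That difference was 0.0046 with a window of 200 kb and 0.0075 with a pseudocount of 5. The lower share, 3.80%, became 0.949% at 4-fold. It was below that of interior genes in the deposited scaling but not with either filter at 5 RPKM (5.43% and 5.52%, against 5.42% and 5.32%) or a window of 200 kb (5.08% against 4.60%). At 0.5 RPKM in place of 1, 10.8% of members in knockout and 14.04% in wild-type hyphae were under the threshold. Leaving out each supercontig gave 19.0% to 22.7% higher, and each end 19.0% to 21.7%. Of 71 named genes past 2-fold, all kept their sign, and 71 stayed past 2-fold with a pseudocount of 0.1, 50 with 5, 61 with centring, 62 with TMM and 62 with length centring. Counts of product groups and runs under the 3 scalings were added after the data were seen. They stand beside those results where the number of subtelomeric genes changes. Depth limits the weakest genes: 9 of the 109 higher members had fewer than 10 wild-type reads.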
